A study of Mus musculus with 12 samples.

Results

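The genes described here are 34 genes of blood and lymph vessel endothelium and of vessel growth. They were listed by name and known function, with earlier results of these data known. A gene was tested where at least 3 probesets of the array carried its symbol and no other, which held for 33 of the 34 genes, of 15025 genes tested in all. Claudin-5 (Cldn5), with 2 probesets, was left out of the tests. Primary tumours of 4 mouse mammary carcinoma lines were measured on exon arrays, with 3 arrays for each line: 4T1, 4T07, 168FARN and 67NR. The lines come from 1 parental tumour and are known to differ in spread: 4T1 completes metastasis to distant organs, 4T07 reaches the lung, 168FARN reaches lymph nodes and 67NR stays at the primary site. In all 4 groups 3-month-old female BALB/c mice received the cells in a mammary fat pad, and tumours were taken out when the average size in a group had reached 1 to 2 cm. The labels count 13 mice injected with 4T1, 15 with 4T07, 11 with 168FARN and 8 with 67NR. Nothing states that each array came from its own animal, so the p-values capture only how these samples vary, and that variation may be technical. Each kind of metastatic behaviour is represented by 1 line, so line and behaviour cannot be told apart.

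Endothelial cells line blood and lymph vessels. They are held together by VE-cadherin (Cdh5) and PECAM1, and their growth is driven by vascular endothelial growth factors (VEGFs) acting on the receptors FLT1, KDR and FLT4. Angiopoietins, which act on the receptor TEK, steady or loosen the vessel wall. Apelin, acting on its receptor APLNR, is a signal of sprouting vessels. In a tumour these vessel cells belong to the host, whereas several of the secreted factors can also be made by tumour cells and fibroblasts. A whole tumour was measured here, so fewer endothelial cells and less RNA per endothelial cell cannot be told apart.

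Every level below is a log2 signal, the median over the probesets of a gene, in arrays 1, 2 and 3 of a line or as mean ± SD (n = 3 arrays per line). Levels of different genes cannot be set against each other. The 335 olfactory receptor genes, which are silent in most tissues, had a 95th percentile of 5.08, and a level under it lies in the range of the background. The pan-endothelial genes of the list were checked for a signal over this level, which most genes pass (median of all genes 7.39). Cdh5, Pecam1, Tie1, Esam, Mmrn2, Clec14a, Robo4 and Erg were all above the background on every array. Prox1, the transcription factor that defines lymphatic endothelium, was below it on the mean of every line. The 531 probesets of the 33 genes moved together to different degrees. The median correlation between probesets of a gene over the 12 arrays was highest for Pdpn (0.98), lay above 0.5 in 22 genes and was lowest for Prox1 (-0.0045).

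Promoters were available for 18 of the 34 genes, 23 promoters in all, from RefSeq (mouse assembly GRCm38.p6). The 250 bases before the transcription start were searched on both strands for the core letters of factors known from endothelial biology. These were AGGAAG and CGGAAG for ETS factors such as ERG and FLI1, AACAAT for SOX factors such as SOX17 and SOX18, and ACGTG for hypoxia-inducible factors. The 2 ETS motifs differ in their first base and cannot fall on the same bases. The 4 promoters shown are those of a core endothelial gene with an ETS match (Robo4), of the core gene that set 67NR apart most clearly and carries a hypoxia match (Clec14a), and of the genes for the secreted proteins that set 4T07 and 67NR apart (Esm1 and Vegfc). Capitals mark the matches and each sequence runs 5′ to 3′ on the strand of its gene, at chr9:37401722-37401971 on the plus strand, chr12:58269259-58269508 on the minus strand, chr13:113209409-113209658 on the plus strand and chr8:54077282-54077531 on the plus strand.
Robo4: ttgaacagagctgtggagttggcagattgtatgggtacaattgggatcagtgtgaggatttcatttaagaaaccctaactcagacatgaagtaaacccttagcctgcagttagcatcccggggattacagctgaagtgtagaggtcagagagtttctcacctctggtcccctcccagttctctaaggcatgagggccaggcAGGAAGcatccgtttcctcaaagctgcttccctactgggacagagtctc
Clec14a: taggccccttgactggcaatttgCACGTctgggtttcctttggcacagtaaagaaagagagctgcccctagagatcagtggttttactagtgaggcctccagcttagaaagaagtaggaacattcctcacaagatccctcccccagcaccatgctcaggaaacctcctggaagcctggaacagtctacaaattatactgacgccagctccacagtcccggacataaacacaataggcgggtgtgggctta
Esm1: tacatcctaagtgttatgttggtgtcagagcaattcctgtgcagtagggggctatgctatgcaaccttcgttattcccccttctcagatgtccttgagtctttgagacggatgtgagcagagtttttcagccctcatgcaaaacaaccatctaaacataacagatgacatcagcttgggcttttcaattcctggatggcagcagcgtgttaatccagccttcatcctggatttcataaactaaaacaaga
Vegfc: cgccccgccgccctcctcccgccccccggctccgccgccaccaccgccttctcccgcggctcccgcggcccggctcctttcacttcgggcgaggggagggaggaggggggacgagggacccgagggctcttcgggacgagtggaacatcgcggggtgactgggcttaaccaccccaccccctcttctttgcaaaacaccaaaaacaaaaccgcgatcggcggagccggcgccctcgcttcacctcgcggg

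AGGAAG was found in 9 of the 23 promoters (39.1%), against 29.5% of all 32851 RefSeq promoters of the same length. CGGAAG was found in 1 (4.35%, against 13.6%), so that either ETS motif stood in 39.1% of the members' promoters and in 39.2% of all promoters. AACAAT was found in the promoters of Emcn, Erg and Tek (13%, against 9.42%). ACGTG was found in those of Clec14a and Pdpn (8.7%, against 16.6%). A match is a description of letters and was not tested as a binding site.

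Most of the genes had their highest level in 67NR and their lowest in 168FARN. The highest of the 4 line means fell in 67NR for 24 of 33 genes, and the lowest fell in 168FARN for 24. The share of all genes with their extremes in these lines is not given here, so the 2 counts only describe the list. By limma's moderated F-test, 21 of the 33 genes differed among the lines (adjusted p under 0.05), against a background of 42% of all genes tested. The comparison of 168FARN with 67NR held the most calls, with 2 genes higher and 14 lower in 168FARN. Its background is 24.7% of all genes, 13.5% higher and 11.2% lower. The median change of the 33 genes was -0.62, against 0.04 over all genes, and 29 of the 33 had lines whose arrays did not overlap, against 40.8% of all genes. In 4T07 against 67NR, 4 genes were higher and 9 lower, and the background is 23.7%, 11% higher and 12.7% lower. The median change there was -0.34, against -0.04 over all genes, and the arrays of 19 did not overlap (background 36.9%). In 4T1 against 67NR, 5 were higher and 5 lower, and the background is 22.3%, 9.38% higher and 13% lower. The median change was -0.31, against -0.04 over all genes, and the arrays of 17 did not overlap (background 44.1%). These 3 comparisons share the 67NR arrays.

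Against 168FARN the median change of the same list lay on the other side. Calls in either direction were less frequent among the 33 genes than over all genes, at 27.3% in 4T1 and 21.2% in 4T07. In 4T1, 7 genes were higher and 2 lower than in 168FARN, and the background is 31.2%, 11.9% higher and 19.3% lower. The median change was 0.28, against -0.08 over all genes, and the arrays of 14 did not overlap (background 46%). In 4T07, 5 were higher and 2 lower than in 168FARN, and the background is 28.3%, 11.4% higher and 16.8% lower. The median change was 0.24, against -0.09 over all genes, and the arrays of 12 did not overlap (background 37.1%). Between 4T1 and 4T07, 1 gene was higher and 1 lower in 4T1, and the background is 2.38%, 0.552% higher and 1.82% lower. The median change was 0.12, against -0.000739 over all genes, and the arrays of 6 did not overlap (background 17.9%). The number of called genes in 4T07 against 67NR depended on single arrays. It was 6 without 67NR array 1 (18.3% of all genes were called in that fit), 8 without 4T07 array 1 (20.9% of all genes) and again 8 without 4T07 array 2 (20.4% of all genes), against 13 with all arrays. In 4T1 against 168FARN it was 5 without 4T1 array 2 (25.7% of all genes), against 9 with all arrays.

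**Figure D1:**
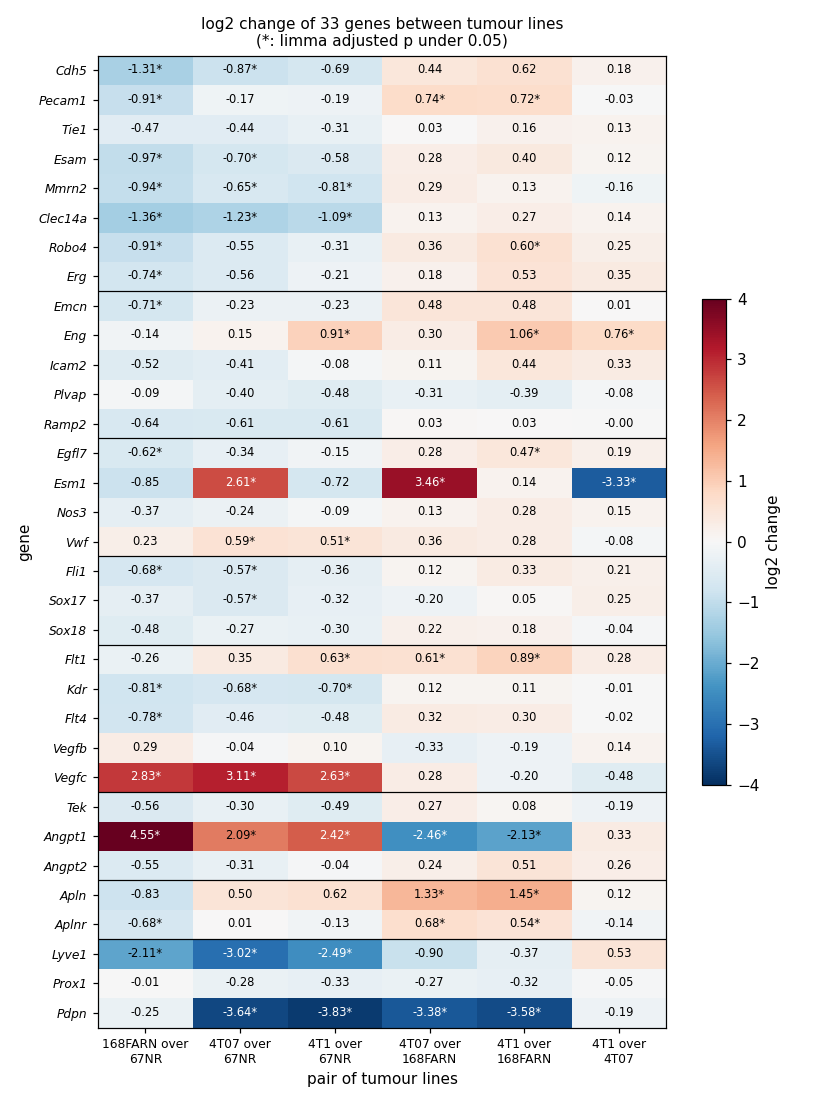
Heat map of the log2 change of the 33 genes (rows, grouped by role) in the 6 comparisons of lines (columns, the first-named line over the second), with red for higher, blue for lower and a star where limma's adjusted p was under 0.05. The column of 168FARN over 67NR is blue for most genes, with Angpt1 (4.55) and Vegfc (2.83) as its called red cells.

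One feature of the 168FARN arrays stands beside every comparison with that line. The mean level of 11 skeletal muscle genes was 5.60, 8.03 and 8.94 on the 168FARN arrays, against 5.37 to 6.26 across all 9 remaining arrays. Arrays 2 and 3 of 168FARN therefore carried more muscle RNA than array 1. With array 1 as the only 168FARN array, 6 of the 33 genes were called against 67NR, 2 higher and 4 lower, and 12.3% of all genes were called in that fit. With that single array 11 of the 16 calls were lost, those of Cdh5, Egfl7, Emcn, Erg, Esam, Flt4, Kdr, Mmrn2, Pecam1, Robo4 and Lyve1. Their adjusted p lay between 0.0522 and 0.237, and their changes between -1.33 and -0.54. Against that array the calls of Egfl7, Pecam1 and Robo4 in 4T1 and of Flt1 and Pecam1 in 4T07 were lost too (adjusted p between 0.137 and 0.270 in 4T1, 0.156 and 0.215 in 4T07). The part of muscle tissue in the results was not tested beyond this.

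Of the 8 core genes of the endothelium, 7 were lower in 168FARN than in 67NR (background 11.2% lower). Cdh5, the adherens junction cadherin of endothelial cells, had levels of 9.03, 8.71 and 8.98 in 168FARN, against 10.48, 10.02 and 10.16 in 67NR. All 3 arrays of 168FARN lay below all 3 of 67NR, and the change was -1.31 ± 0.24 (SE), 2.48-fold lower (limma, adjusted p = 0.00145). In 4T1, Cdh5 stood at 9.08, 9.91 and 9.59, and in 4T07 at 9.24, 9.0 and 9.80, between the other lines. Cdh5 was lower in 4T07 than in 67NR (-0.87, adjusted p = 0.0175), and its change in 4T1 against 67NR was -0.69 (adjusted p = 0.0542). Pecam1, an adhesion molecule of endothelial junctions and also of platelets and leukocytes, had levels of 9.17, 8.79 and 9.09 in 168FARN, against 10.24, 9.75 and 9.78 in 67NR. It was lower in 168FARN than in each of the other lines. The change in 168FARN against 67NR was -0.91 (adjusted p = 0.00453), with 4T1 higher than 168FARN by 0.72 (adjusted p = 0.0141) and 4T07 by 0.74 (adjusted p = 0.0127). Only 3.55% of all genes were lower in 168FARN than in each of the other 3 lines.

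Clec14a, a C-type lectin of tumour vessel endothelium that binds MMRN2, set 67NR apart from all other lines. Its levels were 6.94, 7.67 and 7.38 in 4T1, 6.75, 7.24 and 7.59 in 4T07, 7.17, 6.93 and 7.09 in 168FARN, and 8.47, 8.40 and 8.39 in 67NR. The 9 arrays of the other lines lay below every 67NR array. The change against 67NR was -1.09 in 4T1 (adjusted p = 0.00247), -1.23 in 4T07 (adjusted p = 0.00100) and -1.36 in 168FARN (adjusted p = 0.000555). Mmrn2, the matrix partner of CLEC14A, was also lower than in 67NR in all 3 lines, with changes of -0.81, -0.65 and -0.94 in 4T1, 4T07 and 168FARN (adjusted p = 0.0132, 0.0388 and 0.00533). The Mmrn2 levels were 7.65 ± 0.31 in 4T1, 7.81 ± 0.28 in 4T07, 7.53 ± 0.17 in 168FARN and 8.46 ± 0.32 in 67NR. Kdr and Lyve1, described below, are the other 2 genes that were higher in 67NR than in each other line, for which the background is 4.12%.

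Esam, another junction adhesion molecule, was lower in 168FARN (7.57 ± 0.19, against 8.54 ± 0.13 in 67NR, change -0.97, adjusted p = 0.00531) and in 4T07 (7.85 ± 0.31, change -0.70, adjusted p = 0.0337). Robo4, a guidance receptor that stabilises vessels, was lower in 168FARN than in 67NR (-0.91, adjusted p = 0.00370) and was higher in 4T1 than in 168FARN by 0.60 (adjusted p = 0.0285). Emcn, the sialomucin endomucin of veins and capillaries, was lower in 168FARN than in 67NR (-0.71, adjusted p = 0.0325). Tie1, an orphan receptor of the TIE family, was the 1 core gene of 8 that was not called in 168FARN against 67NR, with levels of 8.52, 7.80 and 7.66 in 168FARN, against 8.69, 8.46 and 8.23 in 67NR. Its arrays overlapped between these lines. Icam2, an adhesion molecule of endothelium and leukocytes, had levels of 5.99 ± 0.30 in 168FARN and 6.51 ± 0.20 in 67NR and was not called between any lines. Plvap, the diaphragm protein of fenestrated vessels, was not called between lines either, and its order differed from that of the core: 9.06 ± 0.41 in 4T1, 9.14 ± 0.31 in 4T07, 9.45 ± 0.32 in 168FARN and 9.53 ± 0.22 in 67NR.

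Several of these calls rest on single arrays. Against 67NR, the calls of Cdh5, Esam, Kdr and Mmrn2 in 4T07 were lost without 67NR array 1, together with those of Vwf, Sox17 and Fli1 (adjusted p between 0.0739 and 0.148). Without 4T07 array 1 the calls of Cdh5, Esam, Kdr, Mmrn2 and Sox17 in 4T07 were lost (adjusted p between 0.0575 and 0.136). Without 4T07 array 2 those of Cdh5, Esam, Kdr, Mmrn2 and Vwf were lost (adjusted p between 0.0739 and 0.0999), and without 67NR array 2 those of Esam, Kdr, Mmrn2 and Sox17 (adjusted p between 0.0511 and 0.132). Single further losses in 4T07 against 67NR were Vwf without 4T07 array 3 (adjusted p = 0.0548), Esam and Sox17 without 67NR array 3 (0.0507 and 0.0514), Sox17 without 4T1 array 1 (0.0534), and Mmrn2 and Sox17 without 4T1 array 3 (0.0518 and 0.0528). In 168FARN against 67NR, leaving out 1 array ended the call of Emcn (168FARN array 1 or 3, 67NR array 1 or 2), of Erg (any 168FARN array, 67NR array 1 or 2), of Flt4 (168FARN array 2) and of Aplnr (168FARN array 1 or 2, 67NR array 1 or 3), with adjusted p between 0.0503 and 0.123. The calls of Cdh5, Clec14a, Esam, Mmrn2, Pecam1, Robo4, Kdr, Egfl7 and Fli1 in that comparison passed in each fit that left out 1 array, but those of all but Clec14a and Fli1 were lost with 168FARN array 1 alone. In 4T1 against 168FARN, Egfl7 was lost without 4T1 array 2 or 3 or 168FARN array 3, Pecam1 without 4T1 array 2 or 168FARN array 2, and Robo4 without 4T1 array 2 or 168FARN array 2 or 3, with adjusted p between 0.0538 and 0.136. Pecam1 in 4T07 against 168FARN was lost without 4T07 array 3 (adjusted p = 0.0504) or 168FARN array 2 (adjusted p = 0.0574).

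**Figure D2:**
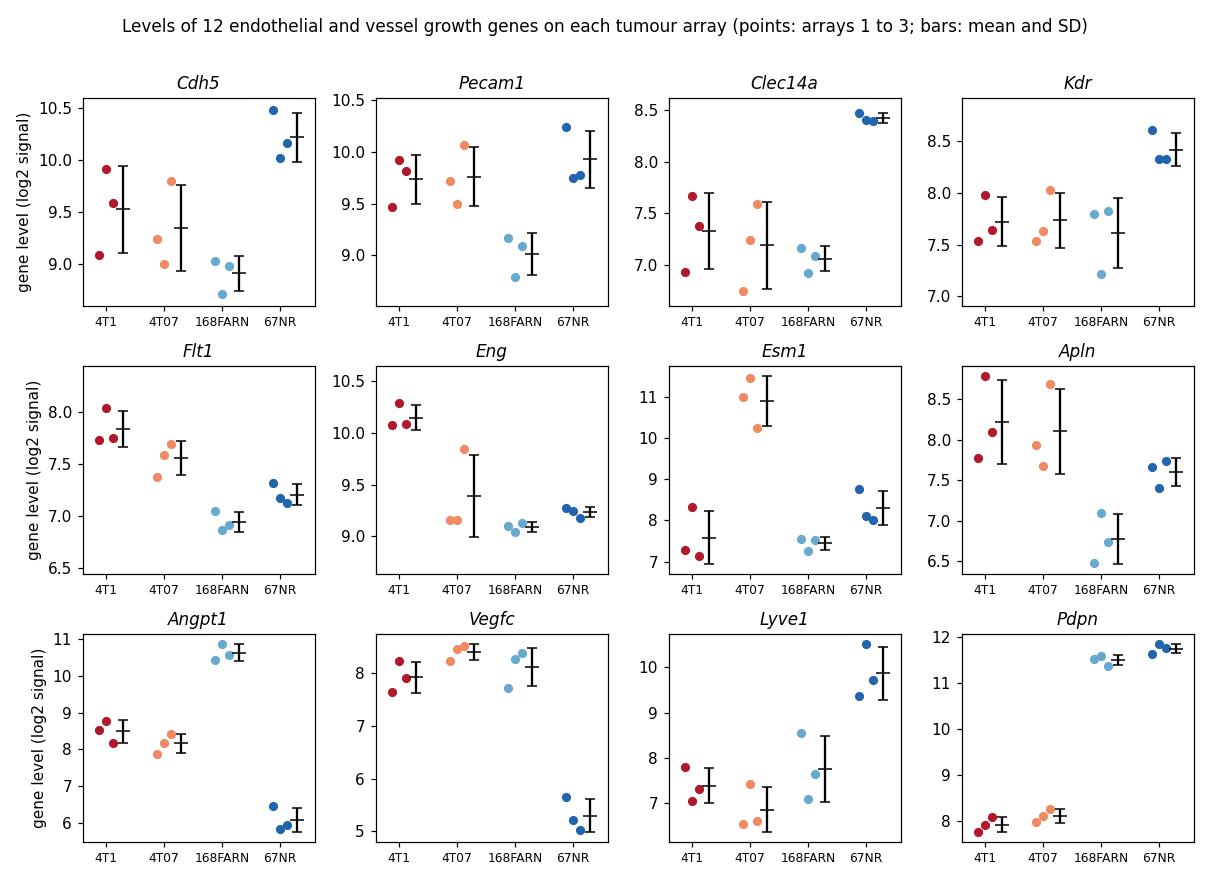
Log2 level of 12 of the genes on each array, 1 panel per gene, with 4T1, 4T07, 168FARN and 67NR from left to right. Points are arrays 1 to 3 and black bars are the mean and SD of a line. Clec14a and Kdr have all 67NR points above all others, Esm1 has all 4T07 points on top, and Angpt1 is highest on the 168FARN arrays and lowest on those of 67NR.

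Eng went with 4T1 and not with the core. It encodes endoglin, a co-receptor for TGF-beta family ligands that is high on proliferating endothelium and is also found on macrophages and stromal cells. Its levels were 10.07, 10.29 and 10.08 in 4T1, 9.16, 9.16 and 9.84 in 4T07, 9.10, 9.04 and 9.13 in 168FARN, and 9.27, 9.25 and 9.18 in 67NR. All 4T1 arrays lay above all others, while 4T07 array 3 stood between. Eng was higher in 4T1 than in 67NR by 0.91 (1.88-fold, adjusted p = 0.00212) and than in 168FARN by 1.06 (2.08-fold, adjusted p = 0.000554). The difference of 0.76 between 4T1 and 4T07 passed narrowly (adjusted p = 0.0407) and was lost without any 1 of 11 of the 12 arrays, with adjusted p between 0.0525 and 0.195. Being higher in 4T1 than in each other line held for 0.193% of all genes.

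The secreted genes did not follow the core as a group. Esm1, which encodes the proteoglycan endocan of endothelial tip cells, set 4T07 apart from every other line. Its levels were 7.28, 8.32 and 7.13 in 4T1, 11.01, 11.46 and 10.25 in 4T07, 7.55, 7.26 and 7.52 in 168FARN, and 8.77, 8.12 and 8.00 in 67NR. The lowest 4T07 array lay above the highest array of any other line. Esm1 was 10.0-fold lower in 4T1 than in 4T07 (-3.33 ± 0.34, SE, adjusted p = 0.000205). It was 11.0-fold higher in 4T07 than in 168FARN (3.46, adjusted p = 7.96e-06) and 6.10-fold higher in 4T07 than in 67NR (2.61, adjusted p = 8.88e-05). Being higher in 4T07 than in each other line held for 0.712% of all genes. Of 7 tip cell genes (Esm1, Angpt2, Apln, Kdr, Flt4, Plvap and Robo4), only Esm1 was called between 4T1 and 4T07 (background 2.38%). In 4T07 against 67NR, 1 of the 7 was higher and 1 lower (background 11% and 12.7%). Against 168FARN, 2 were higher and 0 lower in 4T07 (background 11.4% and 16.8%). Which cells made the Esm1 RNA was not tested.

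The other secreted proteins showed smaller differences. Egfl7, a matrix protein around new vessels, was lower in 168FARN than in 67NR (-0.62, adjusted p = 0.00563) and higher in 4T1 than in 168FARN by 0.47 (adjusted p = 0.0214). Vwf, the clotting factor stored in endothelium and platelets, ran the other way from the core, with levels of 6.75, 6.81 and 6.63 in 4T1, 6.59, 6.96 and 6.87 in 4T07, 6.74, 6.34 and 6.25 in 168FARN, and 6.02, 6.31 and 6.32 in 67NR. It was higher than in 67NR by 0.51 in 4T1 (adjusted p = 0.0432) and by 0.59 in 4T07 (adjusted p = 0.0213). The 67NR arrays lay below all those of 4T1 and 4T07 and overlapped those of 168FARN. The 4T1 call was lost without any 1 array of 4T1 or of 67NR, with adjusted p between 0.0625 and 0.167. The mean level of 7 platelet genes was 5.76 in 4T1, 5.42 in 4T07, 5.63 in 168FARN and 6.04 in 67NR, with 2 of the 7 below the background, and the part of platelets in the Vwf values was not tested.

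Among the transcription factors, the ETS factors Erg and Fli1 were lower in 168FARN than in 67NR. Fli1, which is also a factor of blood cells, had levels of 8.77, 8.85 and 8.81 in 4T1, 8.51, 8.55 and 8.73 in 4T07, 8.31, 8.49 and 8.64 in 168FARN, and 9.41, 9.13 and 8.96 in 67NR. Every 67NR array lay above every other array. The change was -0.68 in 168FARN (adjusted p = 0.00490) and -0.57 in 4T07 (adjusted p = 0.0147) against 67NR, and 4T1 differed by -0.36, which did not pass. Erg changed by -0.74 in 168FARN (adjusted p = 0.0241). The SOX factors of arterial and lymphatic specification showed less. Sox17 was lower in 4T07 (5.67 ± 0.38, against 6.23 ± 0.13 in 67NR, change -0.57, adjusted p = 0.0394), a call lost in 11 of the 20 alternative settings. Sox18 was not called in any comparison of lines, at 7.90 ± 0.16 in 4T1, 7.94 ± 0.19 in 4T07, 7.72 ± 0.21 in 168FARN and 8.21 ± 0.35 in 67NR. Of the surface and signalling genes, Nos3, the endothelial nitric oxide synthase, spanned only 0.37 between its highest and lowest line means, and Ramp2, the adrenomedullin receptor partner, spanned 0.64. Neither was called in any of the 6 comparisons of lines.

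The VEGF receptors Flt1 and Kdr ordered the lines differently. Flt1 encodes VEGF receptor 1, which binds VEGF tightly and signals weakly and is also found on macrophages. Its levels were 7.73, 8.04 and 7.75 in 4T1, 7.38, 7.59 and 7.70 in 4T07, 7.05, 6.87 and 6.91 in 168FARN, and 7.32, 7.17 and 7.13 in 67NR. Every 4T1 array lay above every 168FARN and 67NR array. Flt1 was higher in 4T1 than in 67NR by 0.63 (adjusted p = 0.00653) and than in 168FARN by 0.89 (adjusted p = 0.000438), and higher in 4T07 than in 168FARN by 0.61 (adjusted p = 0.00654). All 33 of its probesets were higher in 4T1 than in 67NR.

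Kdr, VEGF receptor 2, is the main signalling receptor of blood endothelium. Its levels were 7.53, 7.98 and 7.64 in 4T1, 7.53, 7.63 and 8.03 in 4T07, 7.79, 7.22 and 7.82 in 168FARN, and 8.60, 8.32 and 8.32 in 67NR. The 67NR arrays were the 3 highest. Against 67NR the change was -0.70 in 4T1 (adjusted p = 0.0241), -0.68 in 4T07 (adjusted p = 0.0259) and -0.81 in 168FARN (adjusted p = 0.0104), with all 33 probesets lower in each line. The 4T1 call of Kdr was lost without 4T1 array 1, without 4T1 array 3 or without 67NR array 1 (adjusted p = 0.0990, 0.0796 and 0.0969). That of Mmrn2 was lost without 4T1 array 1, without 67NR array 1 or without 67NR array 2 (adjusted p = 0.0652, 0.0632 and 0.0517). Flt4, VEGF receptor 3 of lymphatic and sprouting endothelium, was lower in 168FARN (6.23 ± 0.28, against 7.01 ± 0.07 in 67NR, change -0.78, adjusted p = 0.0122). It stood at 6.52 ± 0.23 in 4T1 and 6.55 ± 0.36 in 4T07.

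The VEGF-C gene was low in 67NR only. Vegfc encodes the main growth factor of lymphatic vessels and a ligand of FLT4 and KDR. Its levels were 7.64, 8.23 and 7.91 in 4T1, 8.23, 8.47 and 8.52 in 4T07, 7.72, 8.27 and 8.38 in 168FARN, and 5.65, 5.22 and 5.03 in 67NR. The arrays of 4T1 and of 4T07 each overlapped those of 168FARN and did not overlap each other, and array 3 of 67NR lay in the range of the background with the others of 67NR near it. The change against 67NR was 2.63 in 4T1 (6.18-fold, adjusted p = 1.97e-06), 3.11 in 4T07 (8.63-fold, adjusted p = 5.33e-07) and 2.83 in 168FARN (7.09-fold, adjusted p = 1.33e-06), and may be larger than these values because of the background. Being lower in 67NR than in each other line held for 2.6% of all genes, and for Vegfc and Angpt1 among the 33. Vegfb, a ligand of FLT1, was not called between any lines: 8.79 ± 0.14 in 4T1, 8.65 ± 0.06 in 4T07, 8.98 ± 0.16 in 168FARN and 8.69 ± 0.11 in 67NR. The 95% confidence interval of its change in 4T1 against 67NR ran from -0.20 to 0.40. The VEGF-D gene Vegfd, a relative of VEGF-C taken from the wider list below, had levels of 6.06 ± 0.16 in 4T1, 7.48 ± 0.29 in 4T07, 10.18 ± 0.38 in 168FARN and 8.49 ± 0.20 in 67NR. Vegfd was lower in 4T1 than in 168FARN (-4.13, adjusted p = 2.23e-08) and than in 67NR (-2.43, adjusted p = 2.40e-06).

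Of the angiopoietins and their receptors, Angpt1 alone was called. Angiopoietin-1 activates TEK and is made by cells around vessels and by fibroblasts. Its levels were 8.52, 8.78 and 8.17 in 4T1, 7.88, 8.17 and 8.42 in 4T07, 10.43, 10.87 and 10.57 in 168FARN, and 6.45, 5.83 and 5.94 in 67NR. The arrays formed 3 ranges that did not overlap: 168FARN on top, 4T1 and 4T07 together, and 67NR below. Angpt1 was 23.4-fold higher in 168FARN than in 67NR (4.55 ± 0.22, SE, adjusted p = 2.37e-08). It was 5.34-fold higher in 4T1 (adjusted p = 3.56e-06) and 4.24-fold higher in 4T07 (adjusted p = 1.42e-05) than in 67NR. Against 168FARN it was 4.39-fold lower in 4T1 (adjusted p = 9.45e-06) and 5.52-fold lower in 4T07 (adjusted p = 3.04e-06). Being higher in 168FARN than in each other line held for 7.13% of all genes.

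The mean level of 10 fibroblast genes had the same order of lines in part, at 9.24 ± 0.19 in 4T1, 9.42 ± 0.23 in 4T07, 9.97 ± 0.09 in 168FARN and 8.44 ± 0.19 in 67NR. Of the 10, 7 were higher and 0 lower in 168FARN than in 67NR, and the background is 13.5% higher and 11.2% lower. The part of fibroblasts in the Angpt1 difference was not tested. Angpt2, the angiopoietin that endothelial cells release in remodelling vessels, was not called between any lines: 7.97 ± 0.41 in 4T1, 7.70 ± 0.11 in 4T07, 7.46 ± 0.36 in 168FARN and 8.01 ± 0.28 in 67NR. Its change in 168FARN against 67NR had a 95% confidence interval from -1.05 to -0.06. Tek, the receptor of the angiopoietins, stood at 6.42 ± 0.13 in 4T1, 6.61 ± 0.52 in 4T07, 6.35 ± 0.22 in 168FARN and 6.91 ± 0.33 in 67NR. The 95% interval of its change in 168FARN against 67NR ran from -1.09 to -0.04.

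Apelin and its receptor were both lowest in 168FARN. Apln, the ligand made by tip cells, had levels of 7.77, 8.79 and 8.10 in 4T1, 7.94, 7.68 and 8.69 in 4T07, 6.48, 7.10 and 6.74 in 168FARN, and 7.66, 7.41 and 7.74 in 67NR. All 168FARN arrays lay below all others, but the change in 168FARN against 67NR was not called (-0.83, adjusted p = 0.0514). Apln was higher in 4T1 than in 168FARN by 1.45 (2.72-fold, adjusted p = 0.00183) and in 4T07 than in 168FARN by 1.33 (2.51-fold, adjusted p = 0.00362). With 4T07 array 2 alone for 4T07, the second of these calls was lost, as were those of Pecam1 and Aplnr (adjusted p between 0.115 and 0.288). Aplnr, measured by 3 probesets, had levels of 8.41, 8.37 and 8.21 in 4T1, 8.55, 8.24 and 8.63 in 4T07, 7.51, 7.73 and 8.12 in 168FARN, and 8.64, 8.15 and 8.60 in 67NR. The highest 168FARN array (8.12) stood just below the lowest array of the other lines (8.15). Aplnr was lower in 168FARN than in 67NR (-0.68, adjusted p = 0.0194), and 4T1 and 4T07 stood above 168FARN by 0.54 (adjusted p = 0.0444) and 0.68 (adjusted p = 0.0162). The 4T07 call of Aplnr was lost without 4T07 array 3 or without 168FARN array 1 or 2 (adjusted p = 0.0532, 0.0662 and 0.0511). The 4T1 call of Aplnr was lost in 8 of the 20 alternative settings.

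The lymphatic genes did not move together. Lyve1, a hyaluronan receptor of lymphatic endothelium and of some tissue macrophages, had levels of 7.80, 7.04 and 7.31 in 4T1, 6.53, 7.43 and 6.60 in 4T07, 8.54, 7.09 and 7.64 in 168FARN, and 9.36, 10.52 and 9.73 in 67NR. Every 67NR array lay above every other array. Against 67NR it was 5.60-fold lower in 4T1 (-2.49, adjusted p = 0.000354), 8.09-fold lower in 4T07 (-3.02, adjusted p = 7.15e-05) and 4.32-fold lower in 168FARN (-2.11, adjusted p = 0.00133). With 168FARN array 1 alone the 168FARN call was lost (-1.33, adjusted p = 0.0890).

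Prox1, by contrast, lay under the background at 3.88 ± 0.36 in 4T1, 3.93 ± 0.37 in 4T07, 4.20 ± 0.55 in 168FARN and 4.21 ± 0.11 in 67NR, so no difference between lines can be read from it. A list of 8 genes of tissue macrophages had mean levels of 9.37 ± 0.06 in 4T1, 8.85 ± 0.20 in 4T07, 8.93 ± 0.03 in 168FARN and 9.80 ± 0.02 in 67NR. Of these 8 genes, 4 were lower in 4T1 (background 13%), 5 in 4T07 (12.7%) and 6 in 168FARN (11.2%) than in 67NR, and 0 were higher. Their part in the Lyve1 difference was not tested.

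Pdpn split the lines into 2 pairs. It encodes podoplanin, found on lymphatic endothelium and also on fibroblasts and on some tumour cells. Its levels were 7.76, 7.91 and 8.09 in 4T1, 7.97, 8.11 and 8.26 in 4T07, 11.53, 11.58 and 11.37 in 168FARN, and 11.64, 11.85 and 11.77 in 67NR. The 4T1 and 4T07 arrays overlapped, and both lay more than 3 below the 168FARN and 67NR arrays. Pdpn was 14.2-fold lower in 4T1 (adjusted p = 5.24e-09) and 12.4-fold lower in 4T07 (adjusted p = 5.11e-09) than in 67NR. It was 11.9-fold lower in 4T1 (adjusted p = 3.78e-09) and 10.4-fold lower in 4T07 (adjusted p = 5.93e-09) than in 168FARN. The mean level of 9 epithelial genes also split these pairs, at 9.15 ± 0.26 in 4T1, 8.97 ± 0.80 in 4T07, 6.94 ± 0.04 in 168FARN and 6.0 ± 0.43 in 67NR. Its part in the Pdpn difference was not tested.

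The members outside the core were then set against the mean of the 8 core genes on each array, which asks whether a gene differed beyond the pan-endothelial level. The core mean was 8.12 ± 0.32 in 4T1, 8.00 ± 0.26 in 4T07, 7.69 ± 0.12 in 168FARN and 8.64 ± 0.22 in 67NR. Relative to it, of 25 members, 6 were higher and 2 lower in 4T1 than in 67NR, against a background of 31.8% of all genes, 28.8% higher and 2.94% lower. In 4T07, 8 were higher and 2 lower than in 67NR (background 47.2%, 44.8% higher and 2.42% lower). In 168FARN, 11 were higher and 1 lower than in 67NR (background 82.6%, 81.4% higher and 1.2% lower). The core mean is subtracted from every gene, so these backgrounds carry the core's own difference between the lines. Against 168FARN, 2 were higher and 4 lower in 4T1 (background 40.8%, 4.51% higher and 36.3% lower), and 2 were higher and 3 lower in 4T07 (background 29.5%, 5.22% higher and 24.3% lower). Between 4T1 and 4T07 only Esm1 was called, as lower in 4T1 (background 1.89%, 0.233% higher and 1.66% lower).

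On this scale Kdr no longer differed from the core by a called amount. Its relative change against 67NR was -0.17 in 4T1, -0.04 in 4T07 and 0.14 in 168FARN, with 95% confidence intervals from -0.65 to 0.30, -0.51 to 0.44 and -0.33 to 0.62. Flt1 was higher relative to the core by 1.16 in 4T1, 1.00 in 4T07 and 0.69 in 168FARN (adjusted p = 0.000470, 0.00144 and 0.00836). Eng was higher by 1.43, 0.80 and 0.81 (adjusted p = 5.04e-05, 0.00864 and 0.00354), and Vwf by 1.04, 1.23 and 1.18 (adjusted p = 0.00407, 0.000645 and 0.000417) in the same order of lines. Apln was higher relative to the core in 4T1 (1.14, adjusted p = 0.00239) and in 4T07 (1.15, adjusted p = 0.00166) than in 67NR. Its own level was not called against 67NR in 4T1 (0.62, adjusted p = 0.152) or in 4T07 (0.50, adjusted p = 0.246). In 4T07 the own levels of Flt1 (0.35, adjusted p = 0.104) and Eng (0.15, adjusted p = 0.609) were not called against 67NR either. Lyve1 remained lower relative to the core in all 3 lines, with relative changes of -1.96 in 4T1, -2.37 in 4T07 and -1.16 in 168FARN (adjusted p = 0.000580, 5.37e-05 and 0.00983). Calls of members as higher on this scale, those of Flt1, Eng and Vwf among them, are shared by many genes. Against 67NR the share was 28.8% of all genes in 4T1, 44.8% in 4T07 and 81.4% in 168FARN. Of the members called higher on this scale in 168FARN, only Angpt1 and Vegfc were also called higher in their own levels. The others were Eng, Flt1, Vwf, Sox17, Pdpn, Prox1, Plvap (0.87, adjusted p = 0.00446), Vegfb (1.24, adjusted p = 0.000226) and Nos3 (0.58, adjusted p = 0.0278). The own levels of Flt1 and Eng changed by -0.26 and -0.14 between these lines, and Prox1 lay under the background.

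**Figure D3:**
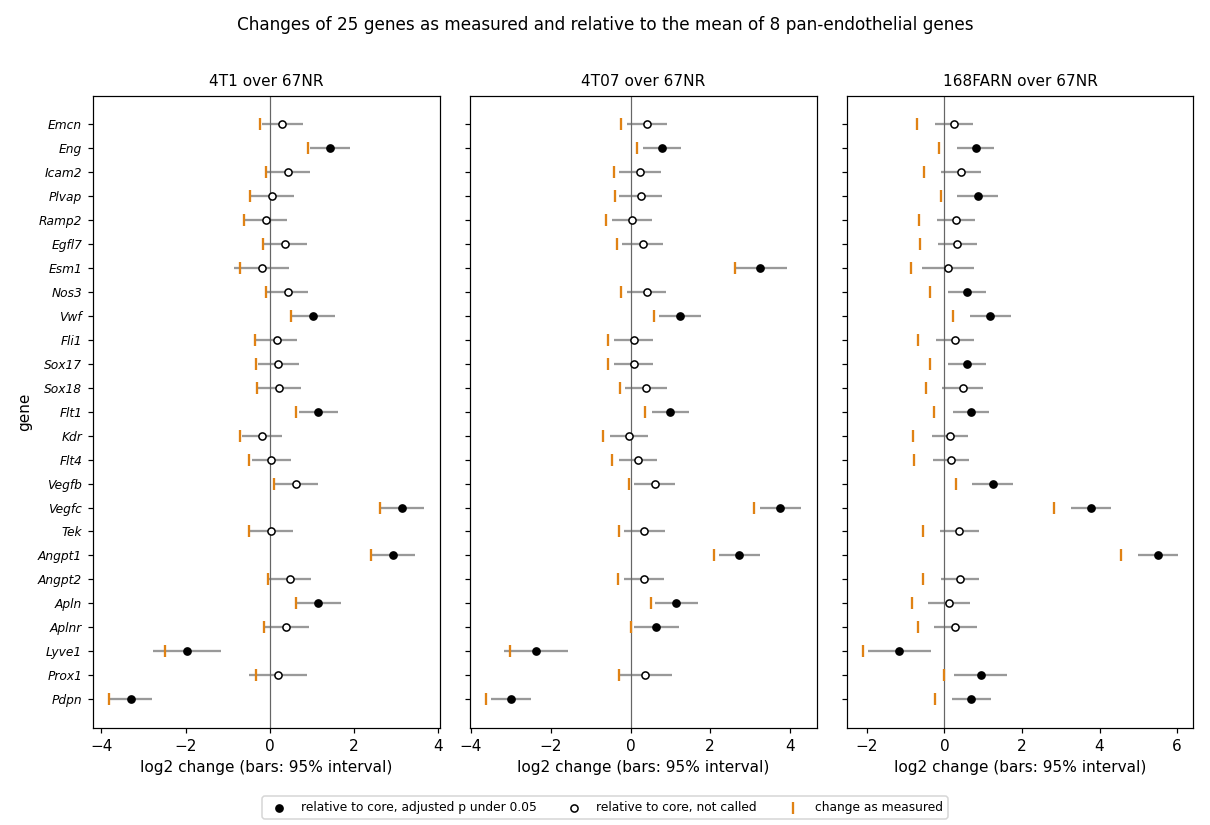
Log2 change against 67NR of the members outside the core, relative to the mean of the 8 core genes, in 1 panel each for 4T1, 4T07 and 168FARN. Bars are 95% confidence intervals, filled points are called genes, and orange ticks are the changes before the core was subtracted. Kdr lies near 0 in all 3 lines, whereas Flt1, Eng and Vwf lie above 0 and Lyve1 below it.

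Individual probesets were compared with the rest of their gene by limma's exon test, which could use 271 probesets of 22 member genes. In 6 genes, 6 probesets were called in at least 1 pair of lines, and over all genes 2.29% of probesets were called. The number was 2 without 4T1 array 3, in a fit that called 2288 probesets over all genes, against 2530 with all arrays. Which exon each probeset covers was not analysed here.

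The clearest case was Vegfc. Its probeset 4628487 had levels of 8.00 ± 0.23 in 4T1, 8.07 ± 0.16 in 4T07, 8.03 ± 0.29 in 168FARN and 7.59 ± 0.11 in 67NR, close to flat, while the other 8 probesets of the gene were lower in 67NR. Those 8 differed from 67NR by 1.69 to 3.12 in 4T1, 2.19 to 3.59 in 4T07 and 2.10 to 3.41 in 168FARN, against 0.41, 0.48 and 0.44 for the probeset. The relative change was -2.16 in 4T1 (adjusted p = 9.60e-06), -2.76 in 4T07 (adjusted p = 1.26e-08) and -2.62 in 168FARN (adjusted p = 9.47e-08). Probesets of Cdh5 and Eng were flat in the same way. Cdh5 probeset 5016430 had levels of 8.09 ± 0.68 in 168FARN and 7.93 ± 0.22 in 67NR (relative change 1.47, adjusted p = 0.00107). Eng probeset 5114499 had 7.18 ± 0.24 in 4T1 and 7.34 ± 0.24 in 67NR (relative change -1.14, adjusted p = 0.00597). A probeset that does not follow its gene was not tested for a signal from other sequences.

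The remaining 3 probesets shifted without being flat. Angpt1 probeset 5044067 had levels of 9.56 ± 0.23 in 4T1, 8.97 ± 0.16 in 4T07, 11.15 ± 0.35 in 168FARN and 6.0 ± 0.78 in 67NR. It differed from 67NR by more than the rest of the gene, with a relative change of 1.39 in 4T1 (adjusted p = 0.0102) and 1.22 in 4T07 (adjusted p = 0.0434). Clec14a probeset 5273184 differed from 67NR by less than the other 3 probesets, with relative changes of 1.08 in 4T1 (adjusted p = 0.0332) and 1.09 in 168FARN (adjusted p = 0.0266). Angpt2 probeset 4853228 had levels of 8.67 ± 0.43 in 4T1 and 9.67 ± 0.19 in 168FARN, a relative change of -1.31 (adjusted p = 0.0176), although Angpt2 as a gene was not called. It was not alone, since the next lowest Angpt2 probeset differed by -0.63 and the highest by 1.16 in this comparison.

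**Figure D4:**
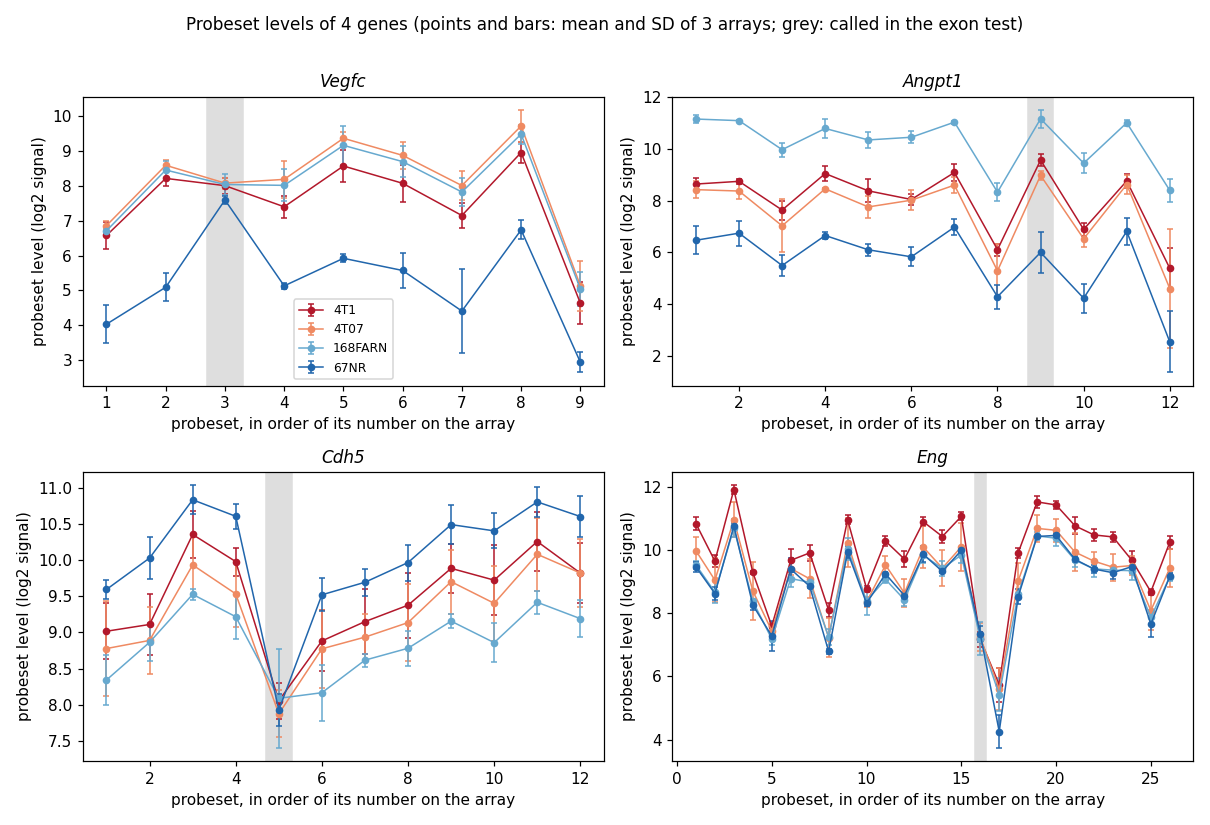
Log2 level of every probeset of Vegfc, Angpt1, Cdh5 and Eng, 1 panel per gene, in the order of the probeset numbers and not of the exons. Points and bars are the mean and SD of 3 arrays, colours are the 4 lines, and grey marks the called probeset. The called Vegfc probeset stays between 7.59 and 8.07 in all lines while the other 8 are lower in 67NR.

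Cldn5, the endothelial tight junction claudin left out of the tests, had 2 probesets that were both highest in 67NR. One had levels of 4.95 ± 0.64 in 4T1, 5.04 ± 0.26 in 4T07, 4.58 ± 0.51 in 168FARN and 6.38 ± 0.13 in 67NR, the first 3 in the range of the background. The other had 7.28 ± 0.36 in 4T1, 7.09 ± 0.53 in 4T07, 6.50 ± 0.70 in 168FARN and 7.95 ± 0.35 in 67NR.

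A wider list of 40 other endothelial genes, 33 of them measured, was set beside the members. Against 67NR, 4 were higher and 10 lower in 4T1 (median change -0.28), 4 were higher and 12 lower in 4T07 (-0.41), and 2 were higher and 15 lower in 168FARN (-0.54). Against 168FARN, 10 were higher and 3 lower in 4T1 and 6 were higher and 3 lower in 4T07. Over all genes, 22.3% were called in 4T1, 23.7% in 4T07 and 24.7% in 168FARN against 67NR. The background against 168FARN is 31.2% in 4T1 and 28.3% in 4T07. The largest changes among the called genes of the wider list were those of Vegfd and of Efnb2, the arterial ligand ephrin-B2. Efnb2 was higher than in 67NR by 1.94 in 4T1 (adjusted p = 6.41e-05) and by 2.87 in 4T07 (adjusted p = 2.37e-06). Stab1, a scavenger receptor of sinusoidal endothelium and macrophages, was lower in 4T07 (9.33 ± 0.07, against 10.98 ± 0.12 in 67NR, change -1.65, adjusted p = 1.49e-05). Sele, the endothelial adhesion molecule E-selectin, was lower in 168FARN (5.23 ± 0.26, against 6.74 ± 0.69 in 67NR, adjusted p = 0.00247). Its 168FARN level lay near the background of 5.08, so the size of the change is limited by it.

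Of 14 pericyte and vascular smooth muscle genes, 1 was higher and 3 lower in 4T1, 1 was higher and 3 lower in 4T07, and 2 were higher and 6 lower in 168FARN than in 67NR. The background is 22.3%, 23.7% and 24.7% of all genes in the same order. The mean level of the 14 genes was 7.69 ± 0.13 in 4T1, 7.62 ± 0.28 in 4T07 and 7.87 ± 0.18 in 67NR. On 168FARN arrays 1, 2 and 3 it was 8.03, 7.32 and 7.45. Array 1 lay within the 67NR range of 7.76 to 8.08, and arrays 2 and 3, which carried more muscle RNA, lay below it. The part of muscle tissue in this was not tested. The potassium channel gene Kcnj8 of pericytes was lower in 168FARN (7.16 ± 0.20, against 8.76 ± 0.11 in 67NR, change -1.60, adjusted p = 0.000159). So was Mcam, an adhesion molecule of pericytes and endothelium (8.34 ± 0.33, against 9.85 ± 0.22 in 67NR, adjusted p = 0.000784). In 4T1 the regulator of G-protein signalling Rgs5 was lower than in 67NR (-1.24, adjusted p = 0.00317). The smooth muscle gene Tagln was higher by 1.78 in 4T1 (adjusted p = 0.0166).

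The hypoxia response genes, which low oxygen is known to raise and some of which induce vessel growth, followed another order of lines. Their mean level over 16 genes was 9.66 ± 0.15 in 4T1, 9.72 ± 0.03 in 4T07, 8.77 ± 0.37 in 168FARN and 8.67 ± 0.12 in 67NR. Against 67NR, 8 were higher in 4T1, 10 in 4T07 and 4 in 168FARN, and 0, 0 and 2 were lower. The background of higher calls is 9.38%, 11% and 13.5% of all genes, and that of lower calls 13%, 12.7% and 11.2%. Car9, the carbonic anhydrase that hypoxia-inducible factors switch on, was higher than in 67NR by 3.54 in 4T1 (adjusted p = 2.38e-05) and 3.31 in 4T07 (adjusted p = 4.44e-05). Aldoc, a glycolytic aldolase, was higher by 3.14 in 4T1 and by 3.15 in 4T07. In 168FARN, Egln3, an oxygen-sensing prolyl hydroxylase, was lower than in 67NR (-3.58, adjusted p = 1.18e-05).

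Markers of blood cells, which share some endothelial genes, also differed between lines. The mean level of 8 leukocyte genes was 10.29 ± 0.02 in 4T1, 10.33 ± 0.19 in 4T07, 9.58 ± 0.17 in 168FARN and 9.93 ± 0.08 in 67NR. Of the 8, 4 were lower and 0 higher in 168FARN than in 67NR, and the background is 11.2% lower and 13.5% higher. Pecam1, Fli1 and Icam2 are also made by leukocytes, and the part of those cells in their values was not tested. Of 8 adipocyte genes, 0 were called in any comparison with 67NR.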

How the data were processed

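Total RNA of primary tumours was measured on Affymetrix mouse exon arrays, 1 array per sample, in 4 lines with 3 arrays each. Each deposited value is the log2 signal of 1 probeset on 1 array. The log2 scale was read from the range of the values, and the authors' summarization, background correction and normalization are not given in the sources used here. Array medians lay between 7.21 and 7.57, and the values were used as deposited, with 0 columns left out. Arrays have no read depth, so the number of arrays limits the precision.

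Of 228090 probesets, 207232 carried 1 gene symbol in the array's annotation, 3882 carried several and 16976 carried none, and only the first kind was used. Symbols were brought up to date through RefSeq genes of assembly GRCm38.p6 (14055 current, 2111 updated, 41 kept as given). Probesets of a gene were combined by their median log2 value, and the 15025 genes holding 3 or more were tested.

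The comparison of lines used R 4.3.3 and limma 3.58.1, and tables were read by the data.table package, version 1.17.8. One lmFit and eBayes model held the 12 arrays, with 1 mean for each line and no covariate, giving a moderated F-test and 6 contrasts. Adjusted p-values are Benjamini-Hochberg over all 15025 genes, and genes under 0.05 were called. Tests were two-sided. Members outside the core were also fitted after the mean of 8 pan-endothelial genes was subtracted on each array. Probesets were tested with limma's diffSplice over 110320 probesets in 7349 genes. These were the probesets over the 25th percentile of signal, from genes over the 50th percentile that held 4 or more of them. Calling a probeset needed an adjusted p under 0.05 together with a relative log2 change of 1 or more in size. The scripts were tested on simulated data.

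The members and lists were chosen with earlier results of these data known. Every member with at least 3 probesets is named. Of the other lists the 2 largest called changes of a comparison described are named, with genes of a list whose level stands beside a result. Alternatives were the mean of probesets, filters on low probesets or genes, quantile normalization, the replicate number as a block, each array left out, 168FARN array 1 alone, only the 2 lines compared, a splicing index, a stricter filter of the exon test and the median of the core. Leaving out 4T07 arrays 1 and 3, which had the lowest and highest medians of the 12, was chosen after seeing the data.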

Additional observations from a re-analysis of the deposited data

How the results depend on the processing

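Of the 57 calls of members over the 6 comparisons, 26 passed in all 20 alternative settings, 31 were lost in at least 1, and 0 changed direction. The calls of Angpt1, Vegfc, Esm1, Pdpn and Clec14a passed in every one of them. With each array left out in turn, the number of members differing among the lines was 14 to 23, against 21 with all arrays (42% of all genes). The number called was 1 to 2 in 4T1 against 4T07 (1.04% to 3.53% of all genes). Against 168FARN it was 5 to 11 in 4T1 (24.4% to 34.1% of all genes) and 5 to 8 in 4T07 (22.2% to 27.5%). Against 67NR it was 7 to 13 in 4T1 (16.2% to 24.5%), 6 to 15 in 4T07 (17.1% to 23.8%) and 13 to 19 in 168FARN (18.6% to 27.2%). It was 2 to 8 for probesets in the exon test and 35 to 47 for calls relative to the core, against 6 and 42 with all arrays. Shares over all genes or probesets are not given here for these ranges or for the 14 to 23 above. Those counts cannot be read alone.

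Of the other settings, 168FARN array 1 alone gave 6 members against 67NR (16 with all arrays; 12.3% of all genes, against 24.7%) and 1 in 4T1 against 4T07 (2 with all arrays), and only the 2 lines compared also gave 1 there. With 4T07 array 2 alone, 4 members were called against 168FARN (17.1% of all genes) and 7 against 67NR (14.4% of all genes). These fits take the spread of a lone array from the remaining lines, and the cause was not tested beyond the smaller number of arrays. The mean of the probesets raised the calls in 168FARN against 67NR to 24 (29.9% of all genes) and quantile normalization to 22 (28.7% of all genes). Over all genes, quantile normalization gave 35.1% of the calls in 4T1 against 4T07 as higher, against 23.2% as deposited. Over all genes the exon test called 2530 probesets, the splicing index 1352 and the stricter filter 1367.

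The labels do not say whether replicate numbers pair the arrays. Over 18 same-numbered pairs, deviations from the line means correlated between -0.086 and 0.191, with 3 pairs over 0.1. Of the 12 arrays, 8 correlated best with their own number, and a pairing by number was not tested beyond this. With the replicate number as a block, 1 member was called in 4T1 against 4T07 (Esm1), and 9, 7, 9, 13 and 17 in 4T1 and 4T07 against 168FARN and in 4T1, 4T07 and 168FARN against 67NR. The shares of all genes called in these comparisons were 2.32%, 32.5%, 29%, 23%, 24.4% and 25.7%, in the same order. The F-test gave 18 members (6405 genes in all), the exon test 7 probesets (2662 in all) and the core scale 37 calls. Calls over all genes on the core scale were not counted for this fit.

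Signal over background limits Prox1, Cldn5 and the 67NR level of Vegfc.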
